A study of Homo sapiens with 10 samples.

Results

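The Hippo pathway and the genes regulated by its effectors YAP and TAZ with the TEAD transcription factors were followed in cultured 12Z cells through 34 genes. The members were taken by name, as listed Hippo components and YAP/TEAD targets, from a table of gene counts with 62750 gene IDs. They comprised 8 transcription factors and co-activators, 12 kinases and regulators of the cascade and 14 target genes. Each gene was counted in 1 role only, so that NUAK2, itself a YAP target, is counted with the cascade. All 34 were detected well enough to be tested, among 15740 tested genes.

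The Hippo pathway restrains growth. The kinases STK3 and STK4 (MST2 and MST1), held by the scaffold SAV1, activate the kinases LATS1 and LATS2, which phosphorylate the co-activators YAP1 and WWTR1 (TAZ) and keep them out of the nucleus. Unphosphorylated YAP1 and WWTR1 enter the nucleus, bind TEAD factors and switch on genes for matrix proteins, surface receptors and cytoskeletal regulators, while VGLL proteins compete for the same TEAD surface. The kinase JNK meets this pathway at the AJUBA family of LIM proteins, which bind and restrain LATS kinases, and at many shared enhancers where TEAD factors sit beside AP-1.

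The cells were 12Z, a single established immortalized line of human epithelial cells from peritoneal endometriosis. All cells were starved overnight in medium with 2% charcoal-stripped serum and given DMSO or an inhibitor 30 min before the 6 h treatment. CDD-2728 and CDD-3013 are described by the submitters as JNK inhibitors. There were 5 groups of 2 libraries each (n = 2), made from poly(A) RNA: IL1β (10 ng/ml) with 1 µM CDD-2728, IL1β with 10 µM CDD-2728, IL1β with 1 µM CDD-3013, IL1β with DMSO (called IL1β alone here) and vehicle (DMSO and no IL1β). The inhibitors were given only together with IL1β, so their groups are called by the compound and dose below. The labels do not say that the 2 libraries of a group came from separate cultures, so the p-values measure a spread between samples that may be technical.

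Libraries held 16312600 to 19479416 counts. The keratins KRT8, KRT18 and KRT19 averaged 6770, 2050 and 1120 CPM (counts per 1000000 counts of the scaled library size), whereas the epithelial adhesion genes CDH1 and EPCAM averaged 9.73 and 0.0729 CPM. The collagen gene COL1A1 and the mesothelial gene LRRN4 averaged 2800 and 464 CPM, and of the 4 immune markers PTPRC and CD68 stayed under 1 CPM, CD3E had no count and CD14 averaged 18.9 CPM. Keratins, as epithelial markers, were thus high, and EPCAM was near 0. These are bulk libraries, in which fewer cells of a type and less RNA per cell cannot be told apart. The 7 comparisons share libraries (3 set an inhibitor group against the same IL1β libraries), so their values are given side by side and no overlap between them is read as a result.

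The level of each gene per kilobase of its exons spanned a wide range. CCN1, a secreted matricellular protein and a widely used YAP target, was the highest at 189 CPM per kb on average over the 10 libraries. The receptor tyrosine kinase AXL followed at 114, the transmembrane protein CRIM1 at 67.5, and AMOTL2, an angiomotin that binds YAP1, at 58.0 CPM per kb. Among the effectors YAP1 averaged 36.5 and its paralog WWTR1 4.54 CPM per kb. TEAD4 and TEAD1 averaged 28.8 and 23.9 CPM per kb, TEAD3 and TEAD2 9.50 and 4.56. The RNA-binding protein gene RBMS3 was the lowest at 0.912 CPM per kb. Counts were never scarce: the least counted value was 85 reads, for ANKRD1, and every other gene had at least 177 in each library.

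**Figure D1:**
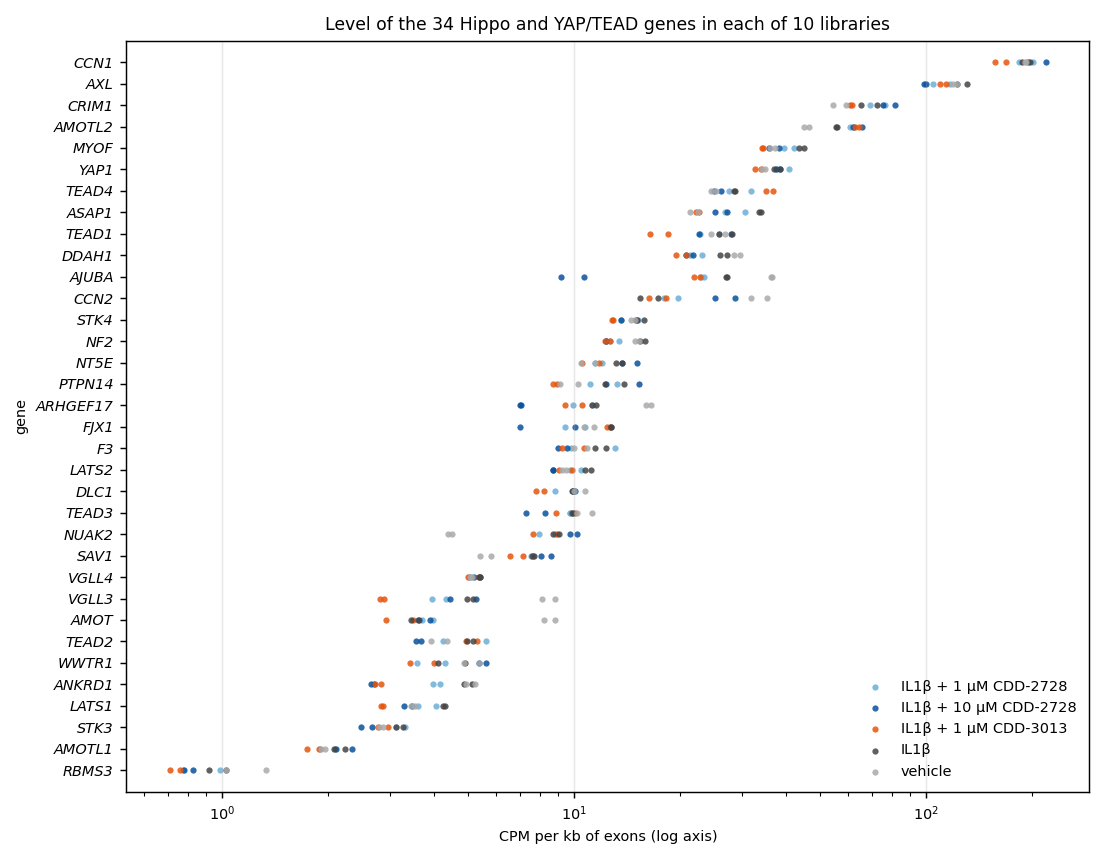
Level of the 34 genes in each of the 10 libraries, in CPM per kilobase of exons on a log axis, one point per library coloured by group and genes ordered by their mean. CCN1 sits at the top and RBMS3 at the bottom, and the points of AJUBA, VGLL3 and AMOT are spread widest.

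The genes differed in how far they moved across the 10 libraries. The ratio of the highest to the lowest CPM was 3.97 for AJUBA, 3.15 for VGLL3 and 3.01 for AMOT. It was 2.35 for ARHGEF17, 2.32 for NUAK2 and 2.3 for CCN2. VGLL4, a TEAD-binding repressor, had the narrowest spread, with a ratio of 1.09. The value of VGLL4 is less certain, because it shares 1596 exon bases with ATG7 on the opposite strand (5032 counts, against 6651 for VGLL4) and the strand setting of the counting is not given in the sources used here. SAV1 likewise shares 840 exon bases with ATL1 (1876 counts, against 7106 for SAV1).

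**Figure D2:**
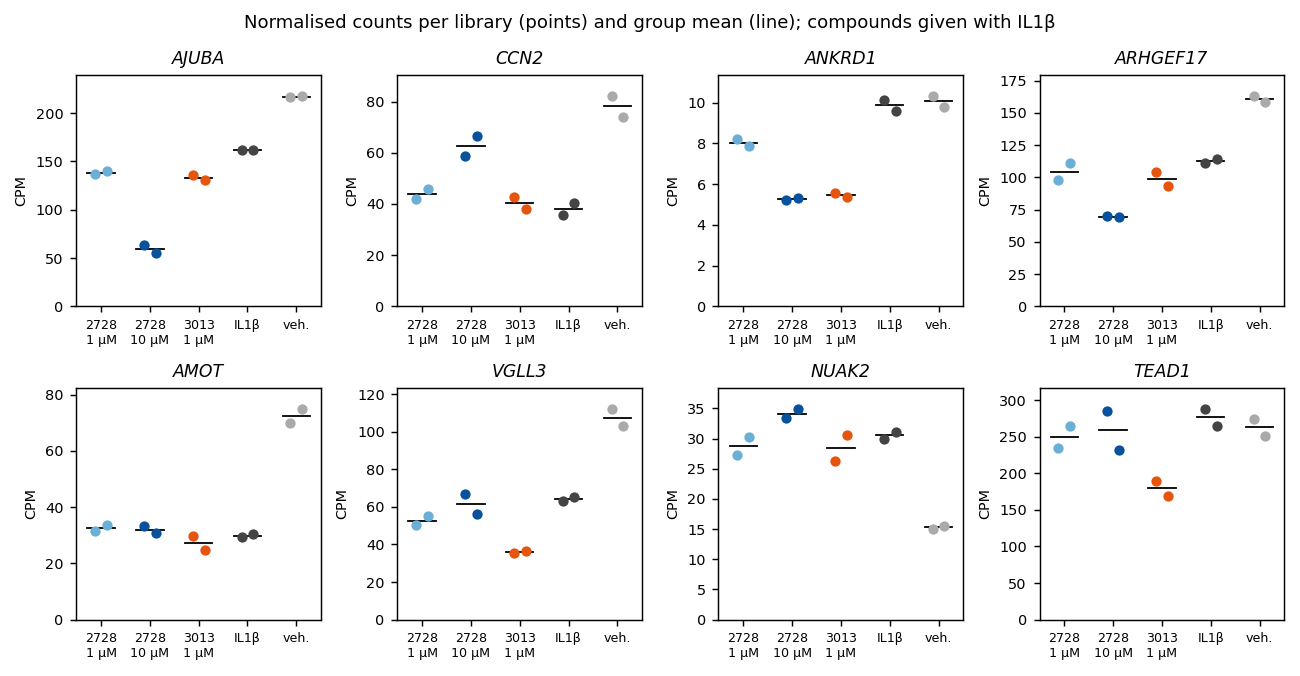
Normalised counts (CPM, from 0) of 8 of the genes in each library, as points, with the mean of each group as a line; from left, IL1β with 1 µM CDD-2728, with 10 µM CDD-2728 and with 1 µM CDD-3013, then IL1β alone and vehicle. AJUBA and ARHGEF17 are lowest with 10 µM CDD-2728, CCN2 is higher there than with IL1β alone, and TEAD1 and VGLL3 are lowest with CDD-3013.

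Promoter sequences from RefSeq (GRCh38.p14; 250 bases before to 50 after a gene's start) matched 26 of the 34 members, with 39 windows. The letters of the TEAD core motif, GGAATG or its reverse complement CATTCC, occurred in 10 of the 39 windows (25.6%), against 14.0% of all 35116 windows. The AP-1 motif TGANTCA, which reads the same way on both strands, occurred in 4 of the 39 (10.3%), against 7.71% of all windows. CCN2, ANKRD1 and NUAK2 each had at least 2 TEAD matches, as did 1.37% of all windows, and CCN2 had 3, as did 0.128%. The windows of CCN2 and ANKRD1, reporter targets of YAP, and of AJUBA and NUAK2, which had the smallest adjusted p-values among the other genes with a match, are shown because these genes carry some of the larger changes below. Each is given in the direction of transcription in lower case, with matches to either motif in capitals.
CCN2: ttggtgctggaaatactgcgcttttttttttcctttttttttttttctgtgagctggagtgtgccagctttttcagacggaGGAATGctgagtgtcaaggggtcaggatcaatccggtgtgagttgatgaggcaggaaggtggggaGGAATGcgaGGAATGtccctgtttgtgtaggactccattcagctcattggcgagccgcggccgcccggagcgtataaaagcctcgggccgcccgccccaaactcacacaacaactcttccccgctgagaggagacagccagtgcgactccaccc
ANKRD1: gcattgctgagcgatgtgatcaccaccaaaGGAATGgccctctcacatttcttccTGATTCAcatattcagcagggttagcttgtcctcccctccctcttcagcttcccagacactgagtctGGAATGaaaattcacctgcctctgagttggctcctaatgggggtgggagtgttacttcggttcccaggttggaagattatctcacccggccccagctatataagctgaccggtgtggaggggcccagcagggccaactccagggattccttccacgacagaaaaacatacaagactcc
AJUBA: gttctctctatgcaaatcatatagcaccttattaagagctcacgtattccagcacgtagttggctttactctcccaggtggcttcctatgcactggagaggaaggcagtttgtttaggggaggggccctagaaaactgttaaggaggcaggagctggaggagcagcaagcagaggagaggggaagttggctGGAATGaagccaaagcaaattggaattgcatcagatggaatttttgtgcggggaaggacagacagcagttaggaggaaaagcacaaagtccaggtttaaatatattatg
NUAK2: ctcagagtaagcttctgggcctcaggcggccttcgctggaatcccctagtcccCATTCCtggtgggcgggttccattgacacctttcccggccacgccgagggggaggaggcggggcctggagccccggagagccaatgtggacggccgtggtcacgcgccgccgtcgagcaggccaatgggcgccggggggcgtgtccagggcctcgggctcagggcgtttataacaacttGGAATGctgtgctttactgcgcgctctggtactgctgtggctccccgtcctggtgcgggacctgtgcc
The CCN2 window (chr6:131951323-131951622, minus strand) has its matches 169, 104 and 95 bases before the start. The ANKRD1 window (chr10:90921038-90921337, minus strand) has TEAD matches 220 and 128 bases and an AP-1 match, TGATTCA, 195 bases before the start. The AJUBA window (chr14:22976793-22977092, minus strand) is one of 2 for this gene, with a match 59 bases before the start used for that window. This window lies inside the annotated gene. The other AJUBA window (22982502-22982801), which covers the annotated gene start at 22982642, has no TEAD and no AP-1 match. The NUAK2 window (chr1:205321696-205321995, minus strand) has matches 197 and 18 bases before the start. None of the matches shown overlapped another. A match describes letters only, and binding was not measured.

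With IL1β, members of the pathway moved in both directions. CCN2, a secreted matricellular target of YAP, averaged 38.2 ± 3.24 CPM with IL1β alone and 78.2 ± 5.88 CPM in vehicle cells. The YAP-binding scaffold AMOT averaged 29.9 ± 0.973 CPM with IL1β alone and 72.3 ± 3.61 CPM in vehicle cells. The kinase NUAK2, itself a YAP target, averaged 30.6 ± 0.819 CPM with IL1β alone and 15.3 ± 0.314 CPM in vehicle cells. The other canonical targets, CCN1 and ANKRD1, were not called. In all, 10 of the 34 genes were called higher and 5 lower (edgeR quasi-likelihood test, Benjamini-Hochberg adjusted p under 0.05), against 32.6% of all tested genes called, 17.6% higher and 15.0% lower. The median log2 fold change was 0.10 over the 34 genes and -0.01 over all tested genes. The split of the calls depended on scaling: with library totals in place of TMM factors, which moved the median of all tested genes to -0.18 and that of the 34 genes to -0.07, 3 were called higher and 10 lower, the 3 being SAV1, NUAK2 and ASAP1. With library totals 40.4% of all tested genes were called, 10.3% higher and 30.1% lower.

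Of the transcription factors and co-activators, VGLL3 was the one called. This co-factor, which binds TEAD factors, had 62.9 and 65.3 CPM with IL1β alone, against 112 and 103 CPM in vehicle cells (log2 fold change -0.75 ± 0.09, adjusted p = 2.02e-07). Both IL1β libraries lay well below both vehicle libraries. YAP1 had 241 and 233 CPM with IL1β alone, against 219 and 215 CPM in vehicle cells (log2 fold change 0.12 ± 0.08, adjusted p = 0.15) and was not called. TEAD1, the most counted of the DNA-binding factors, had 288 and 265 CPM with IL1β alone, against 274.5 and 251 CPM in vehicle cells (log2 fold change 0.07 ± 0.09, adjusted p = 0.587), and its groups overlapped. TEAD4 had 64.5 and 65.1 CPM with IL1β alone, against 55.5 and 57.3 CPM in vehicle cells (log2 fold change 0.20 ± 0.09, adjusted p = 0.0617). Neither TEAD factor passed the test, and the median of the 8 genes was 0.08. With offsets for transcript length and GC content, described with the CDD-3013 result, 3 of the 8 were called higher and 1 lower, against 37.5% of all tested genes called, 22.2% higher and 15.3% lower.

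In the kinase cascade, 6 of 12 genes were called higher and 2 lower (2 higher and 2 lower with library totals). NUAK2 had 30.0 and 31.2 CPM with IL1β alone, against 15.1 and 15.5 CPM in vehicle cells (log2 fold change 1.00 ± 0.12, adjusted p = 6.36e-08). AMOT had 29.2 and 30.6 CPM with IL1β alone, against 69.8 and 74.9 CPM in vehicle cells (log2 fold change -1.28 ± 0.10, adjusted p = 1.16e-10). These were the largest changes of the cascade in each direction, and in neither gene did the groups overlap. SAV1, the scaffold of STK3 and STK4, had 43.1 and 42.6 CPM with IL1β alone, against 32.6 and 30.3 CPM in vehicle cells (log2 fold change 0.45 ± 0.10, adjusted p = 0.00032). PTPN14, a phosphatase that holds YAP1 in the cytoplasm, had 259 and 229 CPM with IL1β alone, against 192 and 170.1 CPM in vehicle cells (log2 fold change 0.43 ± 0.10, adjusted p = 0.00454). AMOTL2 had 330.5 and 334 CPM with IL1β alone, against 278 and 269 CPM in vehicle cells (log2 fold change 0.28 ± 0.08, adjusted p = 0.00142). All 3 were higher in both IL1β libraries than in either vehicle library. AJUBA, which restrains LATS kinases, had 161.5 and 162 CPM with IL1β alone, against 216 and 218 CPM in vehicle cells (log2 fold change -0.43 ± 0.08, adjusted p = 3.56e-05), lower in both IL1β libraries. LATS1 had 37.0 and 36.6 CPM with IL1β alone, against 30.5 and 29.8 CPM in vehicle cells (log2 fold change 0.29 ± 0.11, adjusted p = 0.0169). LATS2 had 59.6 and 62.0 CPM with IL1β alone, against 52.7 and 51.6 CPM in vehicle cells (log2 fold change 0.22 ± 0.09, adjusted p = 0.0338). The LATS genes had the highest adjusted p among the called genes of the cascade.

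Of the target genes 4 of 14 were called higher and 2 lower (1 higher and 5 lower with library totals). CCN2 had 35.9 and 40.4 CPM with IL1β alone, against 82.3 and 74.0 CPM in vehicle cells (log2 fold change -1.04 ± 0.10, adjusted p = 4.71e-09). ARHGEF17, a guanine nucleotide exchange factor, had 111 and 114 CPM with IL1β alone, against 163 and 158 CPM in vehicle cells (log2 fold change -0.51 ± 0.08, adjusted p = 6.5e-06). Both were lower in each IL1β library than in either vehicle library. CCN1, by contrast, had 459 and 484 CPM with IL1β alone, against 472 and 468 CPM in vehicle cells (log2 fold change 0.00 ± 0.08, adjusted p = 0.971), and its groups overlapped. ANKRD1, an ankyrin repeat protein that responds to stretch in muscle, had 10.1 and 9.61 CPM with IL1β alone, against 10.3 and 9.76 CPM in vehicle cells (log2 fold change -0.03 ± 0.16, adjusted p = 0.91). Neither of these canonical targets was called. ASAP1, an ARF GTPase-activating protein, had 277 and 281 CPM with IL1β alone, against 186 and 177 CPM in vehicle cells (log2 fold change 0.62 ± 0.08, adjusted p = 2.22e-07), the largest increase among the targets. MYOF, a membrane-repair ferlin, had 369 and 379.5 CPM with IL1β alone, against 314 and 304 CPM in vehicle cells (log2 fold change 0.28 ± 0.08, adjusted p = 0.00193). CRIM1, which tethers bone morphogenetic proteins, had 515 and 465 CPM with IL1β alone, against 420.5 and 387.5 CPM in vehicle cells (log2 fold change 0.28 ± 0.08, adjusted p = 0.00457). NT5E, the surface enzyme CD73 that makes adenosine, had 59.5 and 62.0 CPM with IL1β alone, against 47.3 and 51.7 CPM in vehicle cells (log2 fold change 0.30 ± 0.09, adjusted p = 0.00885). In these 4 genes both IL1β libraries were higher than both vehicle libraries.

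Leaving out each library in turn kept 11 of the 15 calls. LATS1 and LATS2 were lost without any 1 of the 4 libraries, CRIM1 without IL1β replicate 1 or vehicle replicate 2, and NT5E without IL1β replicate 2 or vehicle replicate 1, at adjusted p of 0.0519 to 0.204.

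With 10 µM CDD-2728 most of the called genes were lower than with IL1β alone, and CCN2, WWTR1 and AMOTL2 were called higher. AJUBA averaged 59.4 ± 6.26 CPM with 10 µM CDD-2728 and 162 ± 0.252 CPM with IL1β alone. ANKRD1 averaged 5.28 ± 0.0628 CPM with 10 µM CDD-2728 and 9.87 ± 0.367 CPM with IL1β alone, while CCN2 averaged 62.7 ± 5.65 CPM with 10 µM CDD-2728 and 38.2 ± 3.24 CPM with IL1β alone. Of the 34 genes 3 were called higher and 15 lower, against 31.5% of all tested genes called, 15.6% higher and 15.9% lower. The median log2 fold change was -0.13 over the 34 genes and 0.01 over all tested genes. With library totals 4 were called higher and 14 lower, against 31.7% of all tested genes called, 19.6% higher and 12.1% lower, and with offsets for transcript length and GC content, described with the CDD-3013 result, 4 higher and 16 lower, against 35.8% called, 16.9% higher and 18.9% lower.

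**Figure D3:**
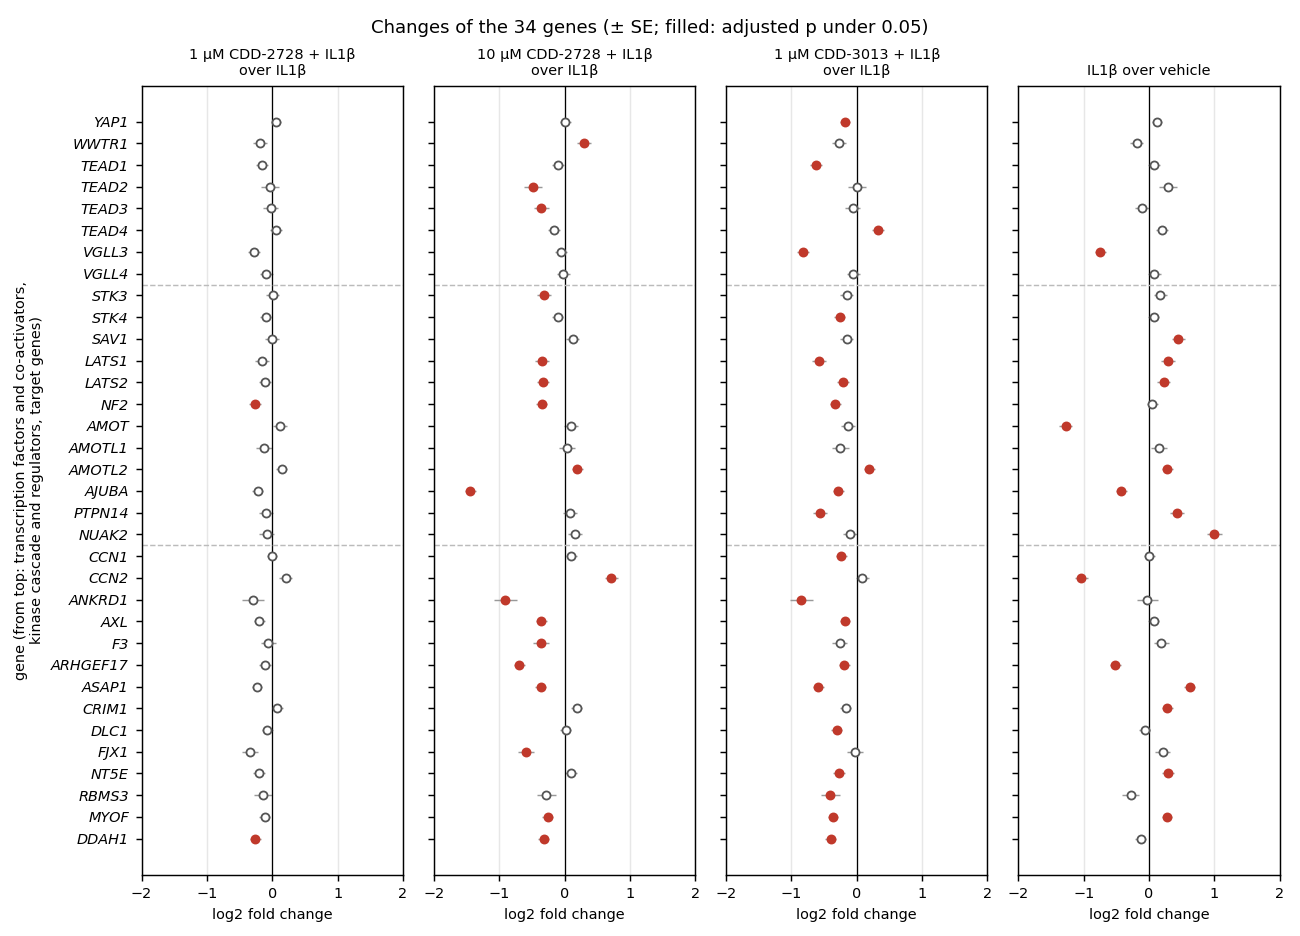
Log2 fold changes ± SE of the 34 genes for the 3 inhibitor groups over IL1β alone and for IL1β over vehicle, grouped from top into transcription factors and co-activators, kinase cascade and regulators, and target genes; filled points have an adjusted p under 0.05. AJUBA with 10 µM CDD-2728 and AMOT with IL1β are the points farthest to the left, and 2, 18, 21 and 15 points are filled from the left panel to the right.

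Of the transcription factors and co-activators, TEAD2 had 10.9 and 10.6 CPM with 10 µM CDD-2728, against 14.8 and 15.4 CPM with IL1β alone (log2 fold change -0.48 ± 0.14, adjusted p = 0.0103). TEAD3 had 22.2 and 25.1 CPM with 10 µM CDD-2728, against 30.2 and 30.0 CPM with IL1β alone (log2 fold change -0.35 ± 0.11, adjusted p = 0.0102). Both TEAD genes were lower in each library with 10 µM CDD-2728 than in either IL1β library. WWTR1, the co-activator TAZ, had 47.3 and 45.0 CPM with 10 µM CDD-2728, against 34.5 and 41.0 CPM with IL1β alone (log2 fold change 0.29 ± 0.11, adjusted p = 0.0377), and was the only one of the 8 called higher. YAP1 had 242 and 235 CPM with 10 µM CDD-2728, against 241 and 233 CPM with IL1β alone (log2 fold change 0.01 ± 0.08, adjusted p = 0.925), and TEAD1 had 286 and 232 CPM with 10 µM CDD-2728, against 288 and 265 CPM with IL1β alone (log2 fold change -0.09 ± 0.09, adjusted p = 0.47). The groups of YAP1 and TEAD1 overlapped and neither gene was called.

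In the kinase cascade 5 of 12 genes were called lower and 1 higher. AJUBA had 63.8 and 54.9 CPM with 10 µM CDD-2728, against 161.5 and 162 CPM with IL1β alone (log2 fold change -1.44 ± 0.09, adjusted p = 9.63e-13), a level 2.72 times lower and the largest change of any of the 34 genes against IL1β alone. Both libraries with 10 µM CDD-2728 lay far below both IL1β libraries. NF2, the membrane-linked activator of LATS kinases also called merlin, had 88.0 and 87.9 CPM with 10 µM CDD-2728, against 113 and 110.3 CPM with IL1β alone (log2 fold change -0.35 ± 0.09, adjusted p = 0.000419). LATS1 had 29.8 and 28.4 CPM with 10 µM CDD-2728, against 37.0 and 36.6 CPM with IL1β alone (log2 fold change -0.34 ± 0.11, adjusted p = 0.00686). LATS2 had 48.4 and 48.4 CPM with 10 µM CDD-2728, against 59.6 and 62.0 CPM with IL1β alone (log2 fold change -0.33 ± 0.09, adjusted p = 0.00288). Both LATS kinases were lower in each treated library. STK3 had 31.2 and 33.5 CPM with 10 µM CDD-2728, against 41.1 and 39.3 CPM with IL1β alone (log2 fold change -0.31 ± 0.10, adjusted p = 0.00902). AMOTL2, the exception in direction, had 393 and 370.2 CPM with 10 µM CDD-2728, against 330.5 and 334 CPM with IL1β alone (log2 fold change 0.20 ± 0.08, adjusted p = 0.0199). AMOT, called lower with IL1β than with vehicle, had 33.2 and 30.8 CPM with 10 µM CDD-2728, against 29.2 and 30.6 CPM with IL1β alone (log2 fold change 0.10 ± 0.11, adjusted p = 0.48), and NUAK2, called higher with IL1β than with vehicle, had 33.4 and 34.9 CPM with 10 µM CDD-2728, against 30.0 and 31.2 CPM with IL1β alone (log2 fold change 0.16 ± 0.11, adjusted p = 0.236). Neither was called against IL1β alone.

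Of the targets 8 of 14 were called lower and 1 higher (7 lower and 2 higher with library totals), with a median of -0.30. CCN2 had 58.7 and 66.7 CPM with 10 µM CDD-2728, against 35.9 and 40.4 CPM with IL1β alone (log2 fold change 0.72 ± 0.10, adjusted p = 3.84e-06). ANKRD1 had 5.23 and 5.32 CPM with 10 µM CDD-2728, against 10.1 and 9.61 CPM with IL1β alone (log2 fold change -0.90 ± 0.18, adjusted p = 0.000108). These 2 genes, both with TEAD matches in the windows above, were called in opposite directions, and in neither did the groups overlap. ARHGEF17 had 69.8 and 69.5 CPM with 10 µM CDD-2728, against 111 and 114 CPM with IL1β alone (log2 fold change -0.69 ± 0.09, adjusted p = 2.79e-07). ASAP1 had 225 and 208 CPM with 10 µM CDD-2728, against 277 and 281 CPM with IL1β alone (log2 fold change -0.37 ± 0.08, adjusted p = 0.000347). AXL had 508 and 513 CPM with 10 µM CDD-2728, against 631 and 673 CPM with IL1β alone (log2 fold change -0.35 ± 0.08, adjusted p = 0.000387). All 3 were lower in both treated libraries. FJX1, the human counterpart of the Drosophila Golgi kinase four-jointed, had 17.2 and 24.5 CPM with 10 µM CDD-2728, against 31.2 and 31.1 CPM with IL1β alone (log2 fold change -0.59 ± 0.12, adjusted p = 0.000962), with its treated libraries far apart. F3, tissue factor, had 25.8 and 27.4 CPM with 10 µM CDD-2728, against 35.3 and 32.9 CPM with IL1β alone (log2 fold change -0.36 ± 0.12, adjusted p = 0.0222). DDAH1, which breaks down methylated arginines, had 99.1 and 94.7 CPM with 10 µM CDD-2728, against 124 and 118 CPM with IL1β alone (log2 fold change -0.32 ± 0.08, adjusted p = 0.0013). MYOF had 323 and 303 CPM with 10 µM CDD-2728, against 369 and 379.5 CPM with IL1β alone (log2 fold change -0.26 ± 0.08, adjusted p = 0.00378). FJX1, F3, DDAH1 and MYOF were lower in each library with 10 µM CDD-2728 than in either IL1β library. CCN1 had 477 and 535.5 CPM with 10 µM CDD-2728, against 459 and 484 CPM with IL1β alone (log2 fold change 0.10 ± 0.08, adjusted p = 0.293), and was not called. CCN1 and DDAH1 lie head to head on chromosome 1 with 2397 bases between them.

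When each library was left out in turn, AJUBA, CCN2, ANKRD1, ARHGEF17, ASAP1, AXL, NF2, LATS2 and DDAH1 stayed called in every case. The other 9 calls were lost without at least 1 library, at adjusted p of 0.051 to 0.4, with 12 and 13 of the 18 kept without IL1β replicates 1 and 2 and 13 without 10 µM CDD-2728 replicate 2. Without 10 µM CDD-2728 replicate 1, which has the lower FJX1 value, FJX1 was at -0.34. The summed level of the 5 mesenchymal markers, most of it COL1A1, was 2910 to 3020 CPM with 10 µM CDD-2728 and 4110 to 4130 CPM with IL1β alone, but 1 of the 5 was called higher and 2 lower, with a median log2 fold change of -0.01. The 4 mesothelial markers, most of whose level is LRRN4, summed to 567 to 601 CPM with 10 µM CDD-2728 and 687 to 691 CPM with IL1β alone, but 3 of the 4 were called higher and 1 lower, with a median of 0.31. The part of the markers in the result was not tested.

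With CDD-3013 at 1 µM most of the called genes were lower than with IL1β alone, with VGLL3, TEAD1 and ANKRD1 among the furthest. VGLL3 averaged 36.1 ± 0.769 CPM with CDD-3013 and 64.1 ± 1.71 CPM with IL1β alone. TEAD1 averaged 179.5 ± 14.8 CPM with CDD-3013 and 276.5 ± 16.2 CPM with IL1β alone, and ANKRD1 5.48 ± 0.148 CPM with CDD-3013 and 9.87 ± 0.367 CPM with IL1β alone. Of the 34 genes 2 were called higher and 19 lower, against 36.4% of all tested genes called, 19.0% higher and 17.3% lower. The median log2 fold change was -0.24 over the 34 genes and -0.01 over all tested genes.

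Transcript length and GC content moved with this result. The transcripts of the 34 genes had a median length of 5181.5 bases and 46.5% GC, against 3352 bases and 48.5% for the tested genes, and 25 of the 34 were longer than that median. Over all tested genes, the median log2 fold change of CDD-3013 over IL1β alone was 0.26, 0.12, -0.05 and -0.24 in 4 equal bins from the shortest to the longest transcripts, and -0.20, -0.05, 0.08 and 0.19 in those from the lowest to the highest GC content. For 10 µM CDD-2728 the same length bins lay between -0.04 and 0.04, and the GC bins, from lowest to highest, were at -0.05, -0.03, 0.02 and 0.09. With offsets for length and GC content, CDD-3013 gave 17 calls, 1 higher and 16 lower, with a median of -0.17 over the 34 genes, against 26.0% of all tested genes called, 14.6% higher and 11.4% lower. Each CDD-3013 call of the 34 genes below that these offsets turned or ended is marked. The summed level of the 5 epithelial markers was also higher with CDD-3013 (12300 to 13500 CPM) than with IL1β alone (9000 to 9110 CPM), as was that of the 4 mesothelial markers (883 to 895 CPM with CDD-3013, 687 to 691 CPM with IL1β alone). Of the epithelial markers 3 of 4 tested were called higher, with a median log2 fold change of 0.35, and with offsets 2 higher and 1 lower, with a median of 0.19. Of the mesothelial markers 4 of 4 were called higher, with a median of 0.42, and with offsets 1, with a median of 0.14. The 5 mesenchymal markers summed to 3260 to 3560 CPM with CDD-3013 and 4110 to 4130 CPM with IL1β alone, but 1 of the 5 was called higher and 2 lower, with a median of 0.08 (2 higher and 2 lower with offsets). The endothelial markers summed to 2.14 to 4.12 CPM and the immune markers to 15.6 to 24.6 CPM over all libraries. The part of the markers in the result was not tested.

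**Figure D4:**
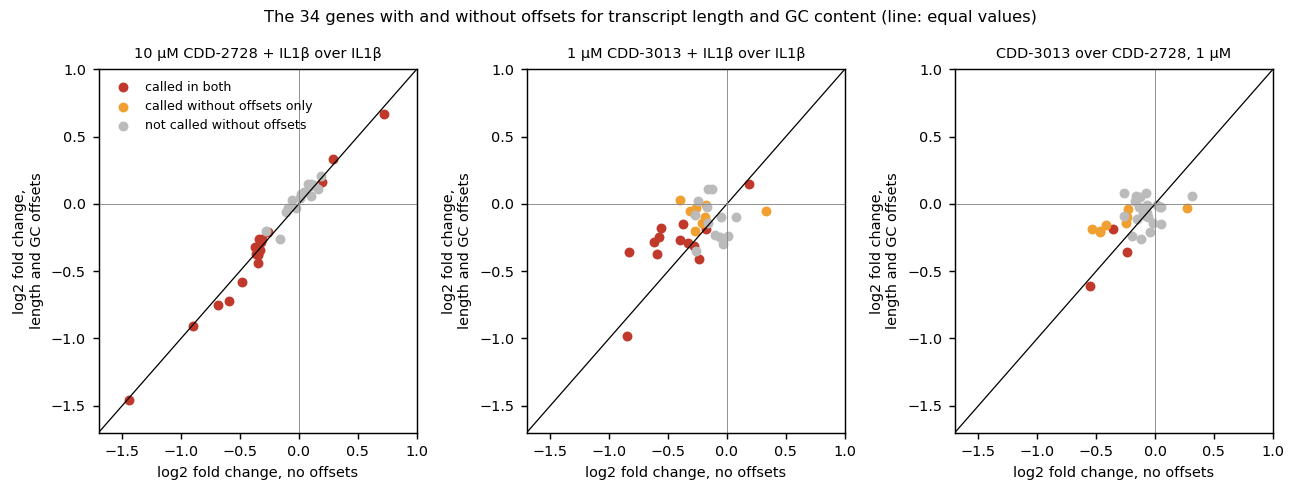
Log2 fold changes of the 34 genes without offsets (horizontal axis) and with offsets for transcript length and GC content (vertical axis) for 10 µM CDD-2728 over IL1β alone, CDD-3013 over IL1β alone and CDD-3013 over CDD-2728 at 1 µM; the diagonal marks equal values and colours mark calls. Points stay near the diagonal for 10 µM CDD-2728, and many move toward 0 for CDD-3013, where ANKRD1 stays lowest at -0.98 with offsets.

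Of the 8 transcription factors and co-activators 3 were called lower and 1 higher (3 lower and none higher with offsets). VGLL3 had 35.6 and 36.7 CPM with CDD-3013, against 62.9 and 65.3 CPM with IL1β alone (log2 fold change -0.83 ± 0.10, adjusted p = 7.72e-07). TEAD1 had 190.0 and 169 CPM with CDD-3013, against 288 and 265 CPM with IL1β alone (log2 fold change -0.62 ± 0.09, adjusted p = 4.2e-05). Both were lower in each CDD-3013 library than in either IL1β library, and both stayed called with offsets, at -0.36 and -0.28. TEAD4 had 83.0 and 79.3 CPM with CDD-3013, against 64.5 and 65.1 CPM with IL1β alone (log2 fold change 0.33 ± 0.09, adjusted p = 0.00279), but -0.05 with offsets, so that its direction turned. YAP1 had 213 and 205 CPM with CDD-3013, against 241 and 233 CPM with IL1β alone (log2 fold change -0.18 ± 0.08, adjusted p = 0.0309), and -0.01 with offsets, where it was not called. WWTR1 had 33.6 and 28.7 CPM with CDD-3013, against 34.5 and 41.0 CPM with IL1β alone (log2 fold change -0.27 ± 0.11, adjusted p = 0.0564) and was not called.

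In the kinase cascade 6 of 12 genes were called lower and 1 higher (4 lower and 1 higher with offsets, 9 lower and none higher with library totals, by which 37.1% of all tested genes were called, 14.5% higher and 22.5% lower). LATS1 had 24.8 and 24.4 CPM with CDD-3013, against 37.0 and 36.6 CPM with IL1β alone (log2 fold change -0.58 ± 0.11, adjusted p = 6.06e-05). PTPN14 had 167 and 163 CPM with CDD-3013, against 259 and 229 CPM with IL1β alone (log2 fold change -0.56 ± 0.10, adjusted p = 0.000636). NF2 had 90.5 and 87.5 CPM with CDD-3013, against 113 and 110.3 CPM with IL1β alone (log2 fold change -0.33 ± 0.09, adjusted p = 0.000621). All 3 were lower in both CDD-3013 libraries and stayed called with offsets, at -0.25, -0.18 and -0.29. AJUBA had 136 and 130.5 CPM with CDD-3013, against 161.5 and 162 CPM with IL1β alone (log2 fold change -0.28 ± 0.08, adjusted p = 0.003), with -0.31 under offsets. LATS2 had 50.3 and 54.8 CPM with CDD-3013, against 59.6 and 62.0 CPM with IL1β alone (log2 fold change -0.21 ± 0.09, adjusted p = 0.0422), and STK4 had 116 and 117 CPM with CDD-3013, against 136 and 143 CPM with IL1β alone (log2 fold change -0.26 ± 0.08, adjusted p = 0.00647). With offsets LATS2 was at -0.14 and STK4 at -0.03, and neither was called. AMOTL2 had 386 and 375 CPM with CDD-3013, against 330.5 and 334 CPM with IL1β alone (log2 fold change 0.19 ± 0.08, adjusted p = 0.0206), and was higher in both CDD-3013 libraries than in either IL1β library.

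Of the targets 10 of 14 were called lower and none higher (9 lower with offsets), with a median of -0.26. ANKRD1 had 5.59 and 5.38 CPM with CDD-3013, against 10.1 and 9.61 CPM with IL1β alone (log2 fold change -0.85 ± 0.18, adjusted p = 0.000224), and -0.98 with offsets. ASAP1 had 187 and 183 CPM with CDD-3013, against 277 and 281 CPM with IL1β alone (log2 fold change -0.59 ± 0.08, adjusted p = 2.34e-06), and -0.37 with offsets. MYOF had 291 and 289.8 CPM with CDD-3013, against 369 and 379.5 CPM with IL1β alone (log2 fold change -0.37 ± 0.08, adjusted p = 0.000149), and -0.15 with offsets. In these 3 genes the groups did not overlap. DDAH1 had 94.9 and 88.7 CPM with CDD-3013, against 124 and 118 CPM with IL1β alone (log2 fold change -0.40 ± 0.09, adjusted p = 0.000154), and -0.27 with offsets. CCN1 had 384 and 414 CPM with CDD-3013, against 459 and 484 CPM with IL1β alone (log2 fold change -0.24 ± 0.08, adjusted p = 0.012), and -0.41 with offsets. Both genes were lower in each CDD-3013 library than in either IL1β library. NT5E had 47.7 and 53.1 CPM with CDD-3013, against 59.5 and 62.0 CPM with IL1β alone (log2 fold change -0.27 ± 0.09, adjusted p = 0.0163). AXL had 587 and 564.5 CPM with CDD-3013, against 631 and 673 CPM with IL1β alone (log2 fold change -0.18 ± 0.08, adjusted p = 0.0448). Both surface proteins were lower in each CDD-3013 library. RBMS3 had 13.9 and 13.0 CPM with CDD-3013, against 16.8 and 18.8 CPM with IL1β alone (log2 fold change -0.40 ± 0.14, adjusted p = 0.0306), and 0.03 with offsets, so that its direction turned. DLC1, a GTPase-activating protein, had 105 and 99.6 CPM with CDD-3013, against 125.5 and 127 CPM with IL1β alone (log2 fold change -0.31 ± 0.08, adjusted p = 0.00186), and ARHGEF17 had 104 and 93.3 CPM with CDD-3013, against 111 and 114 CPM with IL1β alone (log2 fold change -0.19 ± 0.09, adjusted p = 0.0498). With offsets neither was called, at -0.05 for DLC1 and -0.10 for ARHGEF17. CCN2 had 42.6 and 38.1 CPM with CDD-3013, against 35.9 and 40.4 CPM with IL1β alone (log2 fold change 0.08 ± 0.10, adjusted p = 0.544), with overlapping groups. TEAD3, F3 and FJX1 were not called in the TMM fit but were called with offsets, at -0.25, -0.35 and -0.30. F3 was also called with library totals, at -0.34.

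When each library was left out in turn, 11 calls stayed in every case, among them TEAD1, VGLL3, LATS1, PTPN14, NF2, ANKRD1, ASAP1, MYOF and DDAH1. YAP1, STK4, LATS2, AMOTL2, AJUBA, CCN1, AXL, ARHGEF17, NT5E and RBMS3 were lost without at least 1 library, at adjusted p of 0.0509 to 0.466, with 14 and 15 of the 21 kept without CDD-3013 replicates 1 and 2 and 14 and 12 without IL1β replicates 1 and 2.

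At 1 µM CDD-2728 little passed the test. NF2 and DDAH1 were called lower and none of the 34 genes higher, against 4.59% of all tested genes called, 2.03% higher and 2.57% lower, and the median was -0.10 over the 34 genes and 0.00 over all tested genes. NF2 had 90.6 and 95.9 CPM with 1 µM CDD-2728, against 113 and 110.3 CPM with IL1β alone (log2 fold change -0.26 ± 0.09, adjusted p = 0.0258). DDAH1 had 97.1 and 105 CPM with 1 µM CDD-2728, against 124 and 118 CPM with IL1β alone (log2 fold change -0.26 ± 0.08, adjusted p = 0.0343). Both genes were lower in each library with 1 µM CDD-2728 than in either IL1β library. AJUBA had 137 and 139.6 CPM with 1 µM CDD-2728, against 161.5 and 162 CPM with IL1β alone (log2 fold change -0.22 ± 0.08, adjusted p = 0.069). ANKRD1 had 8.23 and 7.85 CPM with 1 µM CDD-2728, against 10.1 and 9.61 CPM with IL1β alone (log2 fold change -0.30 ± 0.17, adjusted p = 0.298), and CCN2 had 41.9 and 46.0 CPM with 1 µM CDD-2728, against 35.9 and 40.4 CPM with IL1β alone (log2 fold change 0.20 ± 0.10, adjusted p = 0.266). None of these 3 was called. Both calls were lost without 1 µM CDD-2728 replicate 1 or either IL1β library. Without 1 µM CDD-2728 replicate 2 both were kept, and the median over the 34 genes was -0.16. With length and GC offsets 7 genes were called, 1 higher and 6 lower, against 6.42% of all tested genes called, 3.08% higher and 3.34% lower.

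The doses of CDD-2728 were then compared directly. AJUBA, ANKRD1 and ARHGEF17 were lower at 10 µM than at 1 µM, and CCN2, WWTR1 and NT5E were higher. Of the 34 genes 3 were called higher and 7 lower at 10 µM, against 27.1% of all tested genes called, 13.3% higher and 13.8% lower, and the median was -0.05 over the 34 genes and 0.01 over all tested genes. With library totals, which moved the median of all tested genes to 0.08, the split was 5 higher and 5 lower, against 26.8% of all tested genes called, 18.0% higher and 8.82% lower. With length and GC offsets it was 4 higher and 12 lower, against 32.2% called, 14.3% higher and 17.9% lower. AJUBA had 63.8 and 54.9 CPM with 10 µM CDD-2728, against 137 and 139.6 CPM with 1 µM CDD-2728 (log2 fold change -1.22 ± 0.09, adjusted p = 7.05e-11). ARHGEF17 had 69.8 and 69.5 CPM with 10 µM CDD-2728, against 98.0 and 111 CPM with 1 µM CDD-2728 (log2 fold change -0.58 ± 0.09, adjusted p = 6.64e-06). ANKRD1 had 5.23 and 5.32 CPM with 10 µM CDD-2728, against 8.23 and 7.85 CPM with 1 µM CDD-2728 (log2 fold change -0.61 ± 0.18, adjusted p = 0.0068). In all 3 genes both libraries at 10 µM were lower than both at 1 µM. CCN2 had 58.7 and 66.7 CPM with 10 µM CDD-2728, against 41.9 and 46.0 CPM with 1 µM CDD-2728 (log2 fold change 0.51 ± 0.10, adjusted p = 0.000298). WWTR1 had 47.3 and 45.0 CPM with 10 µM CDD-2728, against 36.0 and 30.0 CPM with 1 µM CDD-2728 (log2 fold change 0.48 ± 0.11, adjusted p = 0.00174). NT5E had 61.8 and 68.2 CPM with 10 µM CDD-2728, against 51.8 and 54.1 CPM with 1 µM CDD-2728 (log2 fold change 0.30 ± 0.09, adjusted p = 0.0117). These were the genes called higher at the larger dose. TEAD2 had 10.9 and 10.6 CPM with 10 µM CDD-2728, against 16.7 and 12.6 CPM with 1 µM CDD-2728 (log2 fold change -0.45 ± 0.14, adjusted p = 0.0206), and TEAD3 had 22.2 and 25.1 CPM with 10 µM CDD-2728, against 29.6 and 29.6 CPM with 1 µM CDD-2728 (log2 fold change -0.33 ± 0.11, adjusted p = 0.0197). STK3 had 31.2 and 33.5 CPM with 10 µM CDD-2728, against 41.5 and 39.2 CPM with 1 µM CDD-2728 (log2 fold change -0.32 ± 0.10, adjusted p = 0.00952), and LATS2 had 48.4 and 48.4 CPM with 10 µM CDD-2728, against 54.3 and 58.3 CPM with 1 µM CDD-2728 (log2 fold change -0.22 ± 0.10, adjusted p = 0.0477). These 4 genes were lower in both libraries at the larger dose. NF2 and DDAH1, the genes called at 1 µM, differed between doses by -0.08 (95% interval -0.25 to 0.08) and -0.06 (95% interval -0.23 to 0.11) on the log2 scale and were not called (NF2 was called with offsets, at -0.15). AJUBA, CCN2, WWTR1 and ARHGEF17 stayed called whichever library was left out. The other 6 calls were lost without at least 1 library, at adjusted p of 0.0523 to 0.371, with 5 and 7 of the 10 kept without 10 µM replicates 1 and 2 and 5 and 9 without 1 µM replicates 1 and 2.

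At the matched dose of 1 µM, CDD-3013 gave lower levels than CDD-2728 for part of the genes. ANKRD1, VGLL3, TEAD1 and PTPN14 differed most. Of the 34 genes 1 was called higher and 11 lower, against 17.9% of all tested genes called, 9.85% higher and 8.01% lower, and the median was -0.15 over the 34 genes and 0.00 over all tested genes. The calls depended on length and GC content: with offsets 3 genes were called, all lower, CCN1 at -0.36, ANKRD1 at -0.61 and ASAP1 at -0.19, against 3.89% of all tested genes called, 2.71% higher and 1.18% lower. Over all tested genes the median of this comparison was 0.20, 0.09, -0.03 and -0.17 in 4 equal bins from the shortest to the longest transcripts. From the lowest to the highest GC content it was -0.18, -0.06, 0.08 and 0.20.

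ANKRD1 had 5.59 and 5.38 CPM with CDD-3013, against 8.23 and 7.85 CPM with 1 µM CDD-2728 (log2 fold change -0.55 ± 0.18, adjusted p = 0.0202). ASAP1 had 187 and 183 CPM with CDD-3013, against 221 and 253 CPM with 1 µM CDD-2728 (log2 fold change -0.36 ± 0.08, adjusted p = 0.00219). CCN1 had 384 and 414 CPM with CDD-3013, against 449 and 492 CPM with 1 µM CDD-2728 (log2 fold change -0.24 ± 0.08, adjusted p = 0.025). All 3 were lower in both CDD-3013 libraries than in either library with 1 µM CDD-2728. VGLL3 had 35.6 and 36.7 CPM with CDD-3013, against 50.2 and 55.0 CPM with 1 µM CDD-2728 (log2 fold change -0.54 ± 0.10, adjusted p = 0.000986). TEAD1 had 190.0 and 169 CPM with CDD-3013, against 234 and 264 CPM with 1 µM CDD-2728 (log2 fold change -0.47 ± 0.09, adjusted p = 0.00249). PTPN14 had 167 and 163 CPM with CDD-3013, against 208 and 248 CPM with 1 µM CDD-2728 (log2 fold change -0.47 ± 0.10, adjusted p = 0.00726). With offsets these 3 were at -0.19, -0.21 and -0.20 and were not called.

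The other 6 genes were called without offsets and not with them. LATS1 had 24.8 and 24.4 CPM with CDD-3013, against 31.1 and 34.8 CPM with 1 µM CDD-2728 (log2 fold change -0.42 ± 0.11, adjusted p = 0.0045). YAP1 had 213 and 205 CPM with CDD-3013, against 237 and 256 CPM with 1 µM CDD-2728 (log2 fold change -0.24 ± 0.08, adjusted p = 0.0128). TEAD4 had 83.0 and 79.3 CPM with CDD-3013, against 72.3 and 62.3 CPM with 1 µM CDD-2728 (log2 fold change 0.27 ± 0.09, adjusted p = 0.022). The groups of these genes did not overlap, and with offsets they were at -0.16, -0.10 and -0.03. CRIM1 had 433 and 436 CPM with CDD-3013, against 493 and 543 CPM with 1 µM CDD-2728 (log2 fold change -0.25 ± 0.08, adjusted p = 0.0185). MYOF had 291 and 289.8 CPM with CDD-3013, against 334 and 356 CPM with 1 µM CDD-2728 (log2 fold change -0.25 ± 0.08, adjusted p = 0.0111). DLC1 had 105 and 99.6 CPM with CDD-3013, against 113 and 126.5 CPM with 1 µM CDD-2728 (log2 fold change -0.23 ± 0.08, adjusted p = 0.0314). These targets were lower in both CDD-3013 libraries, and with offsets were at -0.14, -0.10 and -0.04.

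For other genes no difference between the compounds passed the test. AJUBA had 136 and 130.5 CPM with CDD-3013, against 137 and 139.6 CPM with 1 µM CDD-2728, a log2 difference of -0.06 (95% interval -0.22 to 0.11). NF2 had 90.5 and 87.5 CPM with CDD-3013, against 90.6 and 95.9 CPM with 1 µM CDD-2728, a difference of -0.07 (95% interval -0.24 to 0.10). CCN2 had 42.6 and 38.1 CPM with CDD-3013, against 41.9 and 46.0 CPM with 1 µM CDD-2728, a difference of -0.12 (95% interval -0.31 to 0.07). These intervals do not show that the compounds acted alike on these genes. FJX1, not called, had the largest positive difference, 0.31 (95% interval 0.07 to 0.56). TEAD1 and VGLL3 alone stayed called whichever library was left out. The other 10 calls were lost without at least 1 library, at adjusted p of 0.0503 to 0.322. The count was 2 without 1 µM CDD-2728 replicate 2, 7 without CDD-3013 replicate 1 and 5 without CDD-3013 replicate 2.

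**Figure D5:**
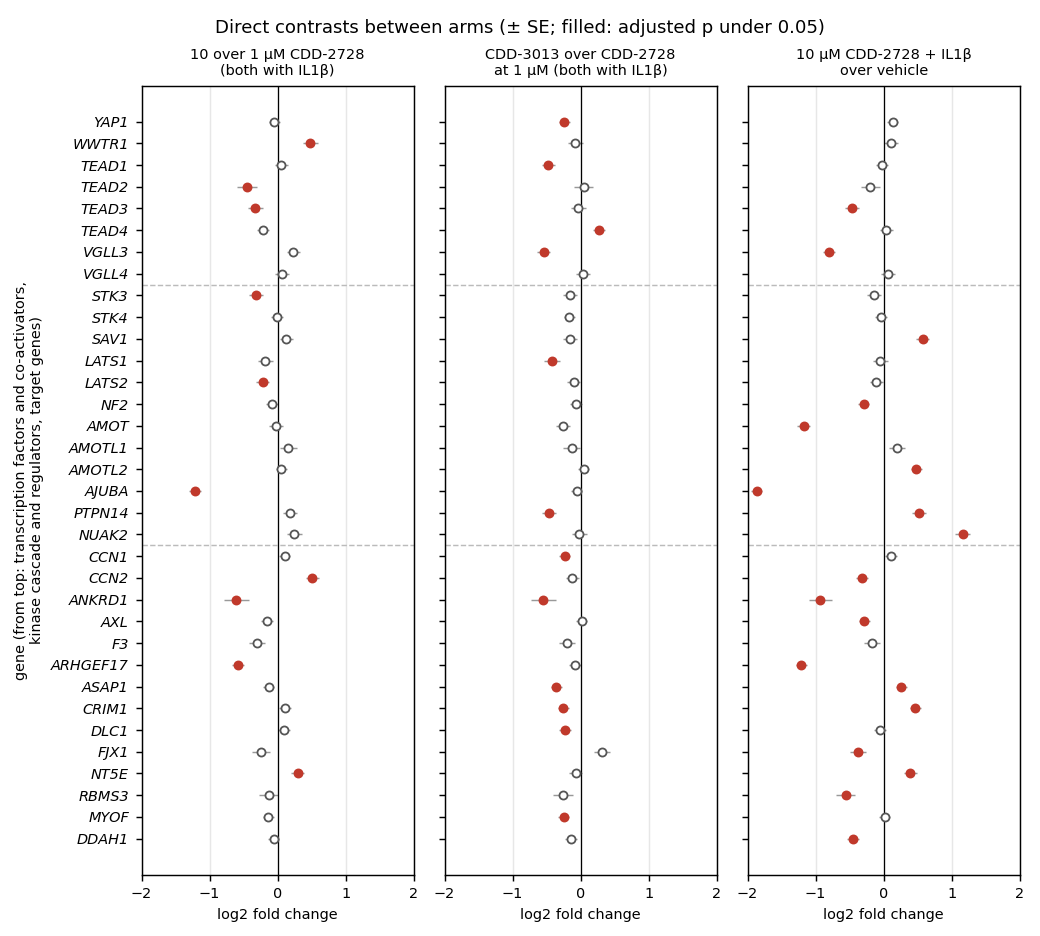
Log2 fold changes ± SE of the 34 genes in the contrasts of 10 over 1 µM CDD-2728, CDD-3013 over CDD-2728 at 1 µM and 10 µM CDD-2728 with IL1β over vehicle, grouped from top by role (transcription factors and co-activators, kinase cascade, targets); filled points have an adjusted p under 0.05. AJUBA is the point farthest to the left in the left and right panels, and 10, 12 and 19 points are filled.

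Cells given IL1β with 10 µM CDD-2728 were finally set against vehicle cells, which had neither. AJUBA and ARHGEF17, lower with IL1β alone than with vehicle, were lower again, whereas CCN2 lay between IL1β alone and vehicle. AMOT and VGLL3 were lower and NUAK2 higher than with vehicle, near their levels with IL1β alone. Of the 34 genes 7 were called higher and 12 lower, against 34.7% of all tested genes called, 18.2% higher and 16.4% lower, and the median was -0.05 over the 34 genes and -0.01 over all tested genes.

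AJUBA had 63.8 and 54.9 CPM with 10 µM CDD-2728, against 216 and 218 CPM in vehicle cells (log2 fold change -1.87 ± 0.08, adjusted p = 7.34e-16), which is 3.65 times lower. ARHGEF17 had 69.8 and 69.5 CPM with 10 µM CDD-2728, against 163 and 158 CPM in vehicle cells (log2 fold change -1.21 ± 0.08, adjusted p = 5.76e-12). AMOT had 33.2 and 30.8 CPM with 10 µM CDD-2728, against 69.8 and 74.9 CPM in vehicle cells (log2 fold change -1.18 ± 0.10, adjusted p = 3.5e-10). In each the groups were far apart. NUAK2 had 33.4 and 34.9 CPM with 10 µM CDD-2728, against 15.1 and 15.5 CPM in vehicle cells (log2 fold change 1.16 ± 0.11, adjusted p = 4.04e-09), the largest increase. ANKRD1 had 5.23 and 5.32 CPM with 10 µM CDD-2728, against 10.3 and 9.76 CPM in vehicle cells (log2 fold change -0.93 ± 0.17, adjusted p = 4.1e-05). VGLL3 had 66.7 and 56.4 CPM with 10 µM CDD-2728, against 112 and 103 CPM in vehicle cells (log2 fold change -0.80 ± 0.09, adjusted p = 5.77e-08). For IL1β alone over vehicle ANKRD1 was at -0.03 and was not called. CCN2 had 58.7 and 66.7 CPM with 10 µM CDD-2728, against 82.3 and 74.0 CPM in vehicle cells (log2 fold change -0.32 ± 0.09, adjusted p = 0.00716). RBMS3 had 15.1 and 14.2 CPM with 10 µM CDD-2728, against 24.3 and 18.8 CPM in vehicle cells (log2 fold change -0.56 ± 0.14, adjusted p = 0.00236). In both genes the 10 µM libraries were lower than both vehicle libraries.

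Of the 12 cascade genes 4 were called higher and 3 lower (4 higher and 5 lower with library totals, by which 39.6% of all tested genes were called, 13.4% higher and 26.2% lower). SAV1 had 45.2 and 48.4 CPM with 10 µM CDD-2728, against 32.6 and 30.3 CPM in vehicle cells (log2 fold change 0.57 ± 0.10, adjusted p = 1.34e-05). PTPN14 had 285 and 231 CPM with 10 µM CDD-2728, against 192 and 170.1 CPM in vehicle cells (log2 fold change 0.51 ± 0.10, adjusted p = 0.00114). AMOTL2 had 393 and 370.2 CPM with 10 µM CDD-2728, against 278 and 269 CPM in vehicle cells (log2 fold change 0.48 ± 0.08, adjusted p = 2.29e-06). Like NUAK2, these genes were higher in both 10 µM libraries than in either vehicle library. NF2 had 88.0 and 87.9 CPM with 10 µM CDD-2728, against 109 and 106 CPM in vehicle cells (log2 fold change -0.29 ± 0.09, adjusted p = 0.00146), and was lower in both. Of the transcription factors, TEAD3 had 22.2 and 25.1 CPM with 10 µM CDD-2728, against 34.1 and 30.9 CPM in vehicle cells (log2 fold change -0.47 ± 0.11, adjusted p = 0.000774), also lower in both libraries.

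Of the 14 targets 3 were called higher and 7 lower. CRIM1 had 578 and 538 CPM with 10 µM CDD-2728, against 420.5 and 387.5 CPM in vehicle cells (log2 fold change 0.47 ± 0.08, adjusted p = 2.1e-05). NT5E had 61.8 and 68.2 CPM with 10 µM CDD-2728, against 47.3 and 51.7 CPM in vehicle cells (log2 fold change 0.39 ± 0.09, adjusted p = 0.000739). ASAP1 had 225 and 208 CPM with 10 µM CDD-2728, against 186 and 177 CPM in vehicle cells (log2 fold change 0.26 ± 0.08, adjusted p = 0.00671). These were the targets called higher, and their groups did not overlap. DDAH1 had 99.1 and 94.7 CPM with 10 µM CDD-2728, against 135 and 129.6 CPM in vehicle cells (log2 fold change -0.45 ± 0.08, adjusted p = 2.14e-05). FJX1 had 17.2 and 24.5 CPM with 10 µM CDD-2728, against 26.1 and 27.9 CPM in vehicle cells (log2 fold change -0.38 ± 0.12, adjusted p = 0.021). AXL had 508 and 513 CPM with 10 µM CDD-2728, against 614 and 630.0 CPM in vehicle cells (log2 fold change -0.29 ± 0.08, adjusted p = 0.00218). In these genes both 10 µM libraries were lower than both vehicle libraries. CCN2, ASAP1, FJX1 and RBMS3 were lost without at least 1 library, at adjusted p of 0.0689 to 0.487: CCN2 without 10 µM CDD-2728 replicate 1 or vehicle replicate 1, ASAP1 and FJX1 without 10 µM CDD-2728 replicate 1 (FJX1 then at -0.13) or vehicle replicate 2, and RBMS3 without vehicle replicate 1.

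AMOTL1, an angiomotin, was called in none of the 7 comparisons of the TMM fit, and VGLL4 in none either. With library totals AMOTL1 was called lower with CDD-3013 than with IL1β alone, at -0.33, and with offsets it was at 0.02 and not called. AMOTL1 had 18.9 and 20.9 CPM with 1 µM CDD-2728, 21.1 and 23.4 CPM with 10 µM CDD-2728, 17.5 and 18.9 CPM with CDD-3013, 22.4 and 20.9 CPM with IL1β alone and 19.6 and 19.2 CPM in vehicle cells. VGLL4 had 36.8 and 36.3 CPM with 1 µM CDD-2728, 39.1 and 37.5 CPM with 10 µM CDD-2728, 38.9 and 36.1 CPM with CDD-3013, 38.7 and 39.1 CPM with IL1β alone and 36.5 and 37.0 CPM in vehicle cells. For both the groups lay close together.

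Other components of the pathway, listed by name apart from the 34 genes, were measured too. Of 28, 26 were tested (VGLL1 and VGLL2 were not). With IL1β over vehicle 9 were called higher and 4 lower (4 higher and 8 lower with library totals), and the median was 0.15. Against IL1β alone none was called higher and 14 lower with 10 µM CDD-2728 (2 higher and 14 lower with offsets), 1 higher and 14 lower with CDD-3013 (3 higher and 11 lower with offsets) and 3 lower with 1 µM CDD-2728. The medians, in that order, were -0.22, -0.28 and -0.07, and with offsets -0.21, -0.11 and -0.02. Of all tested genes 15.6% were called higher and 15.9% lower with 10 µM CDD-2728 (16.9% and 18.9% with offsets), 19.0% higher and 17.3% lower with CDD-3013 (14.6% and 11.4% with offsets), and 2.03% higher and 2.57% lower with 1 µM CDD-2728. For IL1β over vehicle the shares were 17.6% higher and 15.0% lower (10.3% and 30.1% with library totals). The FERM protein FRMD6 averaged 62.3 ± 1.91 CPM with 10 µM CDD-2728 and 135 ± 5.56 CPM with IL1β alone, with a log2 fold change of -1.12 ± 0.09 (adjusted p = 1.17e-10). The AJUBA relative LIMD1 averaged 23.8 ± 2.56 CPM with 10 µM CDD-2728 and 44.5 ± 0.574 CPM with IL1β alone, with a log2 fold change of -0.90 ± 0.11 (adjusted p = 5.67e-07). With CDD-3013, and without offsets, their log2 fold changes were -0.83 ± 0.09 (adjusted p = 4.27e-08) for FRMD6 and -0.83 ± 0.11 (adjusted p = 3.81e-06) for LIMD1. The kinase MAP4K4, which acts on LATS kinases, changed by -0.53 ± 0.08 (adjusted p = 1.59e-06) with 10 µM CDD-2728, and TAOK1, which activates STK3 and STK4, by -0.86 ± 0.08 (adjusted p = 7.27e-08) with CDD-3013. Values with offsets are not given here for single genes of this list. WWC1 (KIBRA), which helps activate LATS kinases, averaged 335 ± 10.6 CPM with IL1β alone and 94.0 ± 3.43 CPM in vehicle cells, with a log2 fold change of 1.83 ± 0.08 (adjusted p = 3e-16), the largest of this list.

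Of 6 further targets from a published YAP/TAZ signature, 2 were called higher and 1 lower with IL1β over vehicle (2 and 2 with library totals or with offsets, with the shares of all tested genes given above). Against IL1β alone none was called higher and 4 lower with 10 µM CDD-2728, 1 higher and 3 lower with CDD-3013 (2 and 3 with offsets) and 1 higher and 3 lower with 1 µM CDD-2728. TGFB2, the ligand TGF-β2, averaged 10.7 ± 0.223 CPM with 10 µM CDD-2728, 35.4 ± 2.72 CPM with IL1β alone and 14.8 ± 0.934 CPM in vehicle cells. Its log2 fold change was 1.26 ± 0.12 (adjusted p = 2.72e-09) for IL1β over vehicle and -1.73 ± 0.13 (adjusted p = 1.24e-10) for 10 µM CDD-2728 over IL1β alone. IGFBP3, an IGF-binding protein, was the one called higher with CDD-3013 without offsets, at 0.93 ± 0.12 (adjusted p = 9.86e-05).

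Of 9 AP-1 subunit genes, 7 were called higher and none lower with IL1β over vehicle, against 17.6% and 15.0% of all tested genes. Against IL1β alone 4 were called higher and 2 lower with 10 µM CDD-2728, 3 higher and 3 lower with CDD-3013, and none higher and 3 lower with 1 µM CDD-2728. The shares of all tested genes called higher and lower were 15.6% and 15.9%, 19.0% and 17.3%, and 2.03% and 2.57%, in that order. JUN, the best known substrate of JNK, averaged 81.6 ± 7.12 CPM with 10 µM CDD-2728 and 316 ± 11.7 CPM with IL1β alone, with a log2 fold change of -1.96 ± 0.08 (adjusted p = 3.88e-15). JUN was also lower, without offsets, with CDD-3013 at -1.31 ± 0.08 (adjusted p = 2.23e-11) and with 1 µM CDD-2728 at -0.92 ± 0.08 (adjusted p = 1.37e-08). FOS was called higher with 10 µM CDD-2728, at 2.27 ± 0.23 (adjusted p = 3.58e-08).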

How the data were processed

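The authors deposited raw gene counts for the 10 libraries (5 groups of 2); fastp, STAR, featureCounts and the genome hg38 are named per the submitters' processing notes. No source used here gives their versions, settings, strand or annotation. Of 62750 gene IDs, 61918 matched GENCODE 29 with their version, 754 without it and 78 not at all; it gave gene names, lengths and GC content. No columns were identical. One edgeR 4.0.16 quasi-likelihood fit (R 4.3.3; TMM, robust, filterByExpr with a minimum count of 10, 5 residual degrees of freedom) held all libraries. It tested 15740 genes by Benjamini-Hochberg adjusted p under 0.05, and "called" means past that threshold. The biological coefficient of variation was 0.06. CPM used TMM-scaled library sizes (factors 0.917 to 1.114); SE came from the quasi-likelihood variance, not below counting error. Length and GC offsets came from loess fits (span 0.3). The test was tried on simulated counts. Alternatives were library totals, RLE size factors, other filters, DESeq2 1.42.0, the 4 libraries of a comparison alone, a replicate block and leaving out each library. The 34 genes and all lists were chosen with earlier results of these data known; members called against IL1β alone or vehicle have values in every library, and other lists have counts and, per comparison, up to 4 genes ranked by adjusted p. CCN1 has no promoter sequence here, and protein sequences were not analysed here.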

Additional observations from a re-analysis of the deposited data

How the results depend on the processing

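Over 19 alternative settings, 2810 of 3093 values of the 34 genes kept their side of the threshold. Those called also kept their direction. Of the rest, 184 lost a call, 93 gained one and 6 called values changed sign. The direction of values called in neither fit was not followed in these counts. TEAD1 with 10 µM CDD-2728 over IL1β alone, never called, ranged from -0.24 to 0.05. The 6 changes of sign among called values all came from length and GC offsets. They were TEAD4 with CDD-3013 over IL1β alone at -0.0496 (-0.0502 with the replicate block), RBMS3 in the same comparison at 0.0254 (0.0257 with the block), and TEAD4 with CDD-3013 over 1 µM CDD-2728 at -0.0296 (-0.0291 with the block). The cause was not tested. With offsets alone, or with offsets and the replicate block, the genes called numbered 7 and 6 for 1 µM CDD-2728 over IL1β alone, 16 and 16 for 10 over 1 µM CDD-2728, and 3 and 3 for CDD-3013 over 1 µM CDD-2728. The shares of all tested genes were 6.42% and 6.18%, 32.2% and 31.6%, and 3.89% and 3.34%. An edgeR fit of only the 4 libraries compared, which has fewer samples, called 6 in the last comparison (12.7% of all tested genes). For 1 µM CDD-2728 over IL1β alone it called 0 (4.55% of all tested genes), where 9 had an unadjusted p under 0.05. DESeq2, run on all 10 libraries, called 2 there (5.34% of the genes it tested). Leaving out 1 library gave 12 to 13 genes for IL1β over vehicle, 0 to 5 for 1 µM CDD-2728, 11 to 13 for 10 µM CDD-2728 and 12 to 15 for CDD-3013 over IL1β alone, 5 to 12 between doses, 2 to 13 between compounds and 16 to 19 for 10 µM CDD-2728 over vehicle; the group left with 1 library was taken to vary like the others.

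The labels do not say whether the replicate numbers pair the libraries. Same-numbered libraries had correlations of -0.114 to 0.055 in their deviations from the group means. Such values cannot show that same-numbered libraries shared no culture or batch, and replicate 1 had the larger count total in every group. With the replicate block alone the counts of genes called were 15, 2, 18, 19, 9, 12 and 19 in the order just given, against 15, 2, 18, 21, 10, 12 and 19 without it. Of all tested genes 31.4%, 4.02%, 30.3%, 35.1%, 25.6%, 16.5% and 33.6% were called with the block. Without it the shares were 32.6%, 4.59%, 31.5%, 36.4%, 27.1%, 17.9% and 34.7%. A TEAD motif with any last base, GGAATN, occurred in 36.3% of all promoter windows and 41.0% of the 39 member windows. With 2 libraries a group and 85 reads at the least, small changes of the low genes, ANKRD1, TEAD2 and RBMS3, are the least certain.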
